A study of Mus musculus with 42 samples.

Results

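Conventional CD4+ T cells (Tconv) of the ileum were compared with Tconv of the mesenteric lymph node (mLN), the node that drains the gut. The members are the 11 libraries that the sample labels give as Tconv of ileum (6 libraries) or of mLN (5 libraries), of 42 libraries in the series. The 4 groups were Tconv of TNFdARE ileum (3 libraries, experiments A, B and C), Tconv of WT ileum (3 libraries, A, B and C), Tconv of TNFdARE mLN (2 libraries, B and C) and Tconv of WT mLN (3 libraries, A, B and C). TNFdARE mice lack the AU-rich element of the Tnf transcript, which normally limits its stability and translation, and WT mice were their littermates. All mice, controls included, carried the DEREG transgene, a reporter of Foxp3 transcription through which Foxp3-positive regulatory T cells (Treg) could be separated by flow cytometry from the Foxp3-negative Tconv. The labels give neither age nor sex, nor how many animals made up a library, and no isolation protocol that would separate the site of a cell from the handling of its tissue. Treg of the same 2 sites (11 libraries) serve below as the cells of comparison.

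Tconv recirculating through a lymph node are mostly naive or central memory cells. They read chemokines of the node through CCR7, and leave along a sphingosine-1-phosphate gradient. In the intestinal wall most CD4+ T cells have met antigen, stay in place and make effector cytokines. Th17 cells respond to IL-23 and IL-1 and secrete IL-17A, IL-17F and IL-22, which act on epithelium. Th1 cells use T-bet and secrete IFN-γ, which acts on macrophages. Ileal inflammation in TNFdARE mice is a model of Crohn's-like ileitis.

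The 11 libraries held 18710456 to 25916252 counts each, with 17560 to 20875 genes detected and 1.28 to 1.81% of counts from mitochondrial genes. On the first principal component, which held 64.9% of the variance of log2-scaled counts, the ileum libraries lay between 45.96 and 106.2 and the mLN libraries between -115.23 and -71.58. Pearson's r over genes was between 0.954 and 0.9846 for replicates of a group, and between 0.8734 and 0.9379 for ileum against mLN libraries. Levels are given in CPM (library-size-scaled counts), with list sums scaled by total counts alone and single genes also by TMM. The T cell identity genes summed to 8707 to 10770 CPM in ileum and 11090 to 11780 CPM in mLN. Cd4 stood between 932 and 1294 CPM in ileum and between 899 and 972 CPM in mLN. The cells therefore carried the transcripts of their label at both sites. Cd8a did not pass 0.5 CPM in any of the 11 libraries.

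RNA of other cells differed with the site, and its part in the results below was not tested. Genes of plasma cells summed to 72.85 to 240.9 CPM in ileum and 1.003 to 20.36 CPM in mLN (7 of 8 tested members higher in ileum). Epithelial genes summed to 29.45 to 241.3 CPM in ileum and 22.82 to 26.09 CPM in mLN (15 of 15 tested members higher, 7 with voom and 9 in WT alone). Of those 15, 5 had no count in any mLN library, so they entered the test through ileum and could only be called higher. Stromal and endothelial genes summed to 171.5 to 586.3 CPM in ileum and 225.1 to 271.1 CPM in mLN (9 of 10 higher and 1 lower, with voom 5 higher and 1 lower). The same limit held for 1 tested member each of the stromal, plasma cell and B cell lists. The stromal and endothelial list had a median log2 fold change of 6.3, though its sums overlapped between the sites. Its member that fell was Pecam1 (-0.44 ± 0.07). Dcn, a collagen-binding proteoglycan of fibroblasts, stood at 93.8 CPM in the WT ileum library of experiment B, at 1.26 to 52.1 CPM in the other ileum libraries and at 0 in all mLN libraries. Genes of B cells summed to 368 to 516.8 CPM in ileum and 618.5 to 742.7 CPM in mLN. Of 7 tested members 2 were lower in ileum (Cd79a and Ighm), beside 26.7% of all genes tested. Another 3 were higher, beside 34.3% of all genes, namely Igkc (4.085 on the log2 scale), Pax5 (3.22) and Ebf1 (7.14). The median log2 fold change of the list was 0.29. Genes of macrophages, monocytes and neutrophils summed to 6.847 to 34.37 CPM in ileum and 2.122 to 5.277 CPM in mLN, those of dendritic cells to 9.849 to 49.31 CPM in ileum and 4.231 to 11.89 CPM in mLN, and those of mast cells, basophils and eosinophils to 35.6 to 155.5 CPM in ileum and 2.385 to 7.189 CPM in mLN. In that last list 2 of 3 tested members were higher and 1 lower. The sum came in ileum almost wholly from the receptor gene Kit, at 34.5 to 162 CPM after TMM scaling. The mast cell protease gene Cpa3 stood at 0.139 to 0.658 CPM in ileum and 0.806 to 2.48 CPM in mLN.

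Ileal Tconv differed from nodal Tconv over most of the transcriptome. With the genotypes weighted equally, 9672 of 15868 tested genes passed (61.0%) in edgeR's quasi-likelihood test at a Benjamini-Hochberg adjusted p below 0.05. In ileum 5443 genes were higher (34.3%) and 4229 lower (26.7%). The increases were larger than the decreases: the median fold of the genes that rose was 3.19 and that of the genes that fell 1.54, and 3547 rose and 1100 fell by at least 2-fold. For 3387 genes every ileum library stood above every mLN library (21.3%), and for 2915 every ileum library stood below (18.4%). With so large a share of genes past the test, a list is read below by how far its genes moved and how many passed, against a median of 0.08 on the log2 scale over all genes tested. Scaling by total counts alone moved that median by -0.11 and gave 4825 higher and 5150 lower genes (48.4% higher, against 56.3%). These are bulk libraries, so that fewer cells of a kind and less RNA per cell cannot be told apart.

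The site difference was found within either genotype. In WT alone, 7622 genes passed (48.0%), 4382 higher (27.6%) and 3240 lower (20.4%) in ileum, and in TNFdARE alone 6667 passed (42%), 3538 higher (22.3%) and 3129 lower (19.7%). The TNFdARE count rests on 2 mLN libraries and was 4361 without the library of experiment B. Under scaling by total counts alone the TNFdARE split was 3015 higher and 4087 lower (42.5% higher, against 53.1%). Of the genes called, 5459 were called in both genotypes, which is 81.6% of the TNFdARE calls and 71.4% of the WT calls, and 5441 of them had the same sign.

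The 3 effector cytokines by which gut Tconv are recognised were among the genes that moved furthest. Il17a (ENSMUSG00000025929, chr1:20730905-20734496, plus strand, GRCm38) stood at 837, 1664 and 1134 CPM in the TNFdARE ileum libraries and 525, 797 and 495 CPM in the WT ileum libraries, in the order of experiments A, B and C. In mLN it stood at 6.08 and 2.61 CPM in TNFdARE (experiments B and C) and at 0.592, 0.0825 and 0.333 CPM in WT. Every ileum library was above every mLN library, and the TNFdARE libraries stood above the WT libraries at either site. The log2 fold change was 9.44 ± 0.38 (SE; edgeR adjusted p = 2.7e-09), with 8.11 ± 0.50 in TNFdARE and 10.78 ± 0.51 in WT.

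Il22, whose product drives epithelial antimicrobial defence (ENSMUSG00000074695, chr10:118204942-118210047, plus strand), stood at 395, 356 and 422 CPM in TNFdARE ileum and 328, 428 and 257 CPM in WT ileum. In mLN it stood at 0.503 and 1.23 CPM in TNFdARE and at 0.632, 0 and 0.0741 CPM in WT, where a count of 0 allows a level of up to 0.111 to 0.165 CPM depending on the library (3 counts). The ileum libraries of both genotypes formed 1 range far above the mLN libraries (9.65 ± 0.35, edgeR adjusted p = 1.4e-09). Without the WT mLN library of experiment A, after which 1 WT mLN library with a count remains, Il22 differed by 10.86. Ifng, which encodes the Th1 cytokine IFN-γ (ENSMUSG00000055170, chr10:118441046-118445892, plus strand), stood at 204, 270 and 253 CPM in TNFdARE ileum and 236, 296 and 139 CPM in WT ileum. Its mLN values were 2.52 and 2.09 CPM in TNFdARE and 1.7, 2.23 and 0.852 CPM in WT. The ileum groups overlapped between genotypes and so did the mLN groups, while the sites did not overlap (6.93 ± 0.28, edgeR adjusted p = 2.5e-09).

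**Figure D1:**
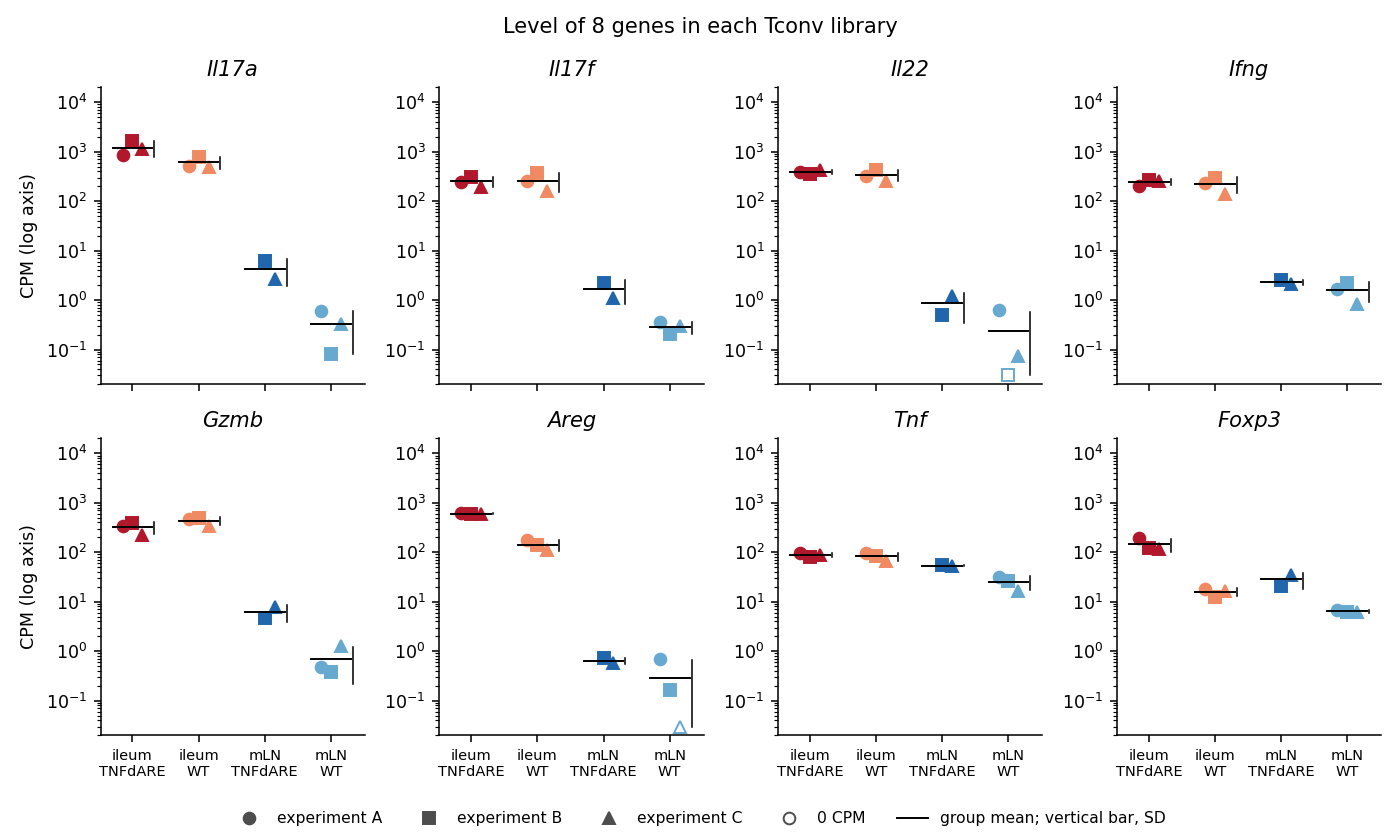
Level in CPM (log axis) of 8 genes in each Tconv library of ileum and mLN, by genotype, with symbols for the experiments, lines for the group mean and SD, and open symbols at the foot of the axis for 0 CPM. In ileum Il17a lies between 495 and 1664 CPM, and in mLN between 0.0825 and 6.08 CPM.

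The type 17 list moved as a whole: 14 of 14 tested genes were higher in ileum, with no overlap between the sites, a median log2 fold change of 4.60, and the same count in WT alone and in TNFdARE alone. Il17f, the neighbour and close relative of Il17a (chr1:20777146-20790617, minus strand), stood at 247, 309 and 196 CPM in TNFdARE ileum and 251, 366 and 160 CPM in WT ileum, against 2.26 and 1.09 CPM in TNFdARE mLN and 0.355, 0.206 and 0.296 CPM in WT mLN. Unlike Il17a, it overlapped between the genotypes in ileum. The receptor genes of the type 17 pathway rose too: Il23r by 4.69, Il1r1 by 4.68 and the homing receptor gene Ccr6 by 2.92 on the log2 scale. Ccl20, the ligand of CCR6, rose by 6.81, with 54.7 to 146 CPM in ileum and 0.165 to 3.56 CPM in mLN.

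The promoters of the pair of IL-17 genes are shown because these neighbours were among the 3 largest rises of the list and because several nuclear receptors bind at the core AGGTCA. The stretches are the 250 bases before the annotated start (RefSeq, GRCm38.p6), 5′ to 3′ on the strand of the gene, with capitals marking AGGTCA or its reverse complement, searched on both strands.
Il17a (chr1:20730655-20730904, plus strand): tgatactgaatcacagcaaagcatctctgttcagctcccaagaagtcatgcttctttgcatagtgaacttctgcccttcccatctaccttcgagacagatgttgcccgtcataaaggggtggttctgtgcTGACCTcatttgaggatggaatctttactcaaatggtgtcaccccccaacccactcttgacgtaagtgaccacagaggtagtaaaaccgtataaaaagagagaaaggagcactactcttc
Il17f (chr1:20784271-20784520, minus strand): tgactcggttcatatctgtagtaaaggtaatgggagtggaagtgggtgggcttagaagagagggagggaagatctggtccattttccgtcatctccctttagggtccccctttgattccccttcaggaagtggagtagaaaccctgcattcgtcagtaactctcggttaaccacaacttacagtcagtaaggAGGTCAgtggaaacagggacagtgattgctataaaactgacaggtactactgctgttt
Each promoter held 1 match. The Il17f stretch lies inside the span of Il17f given above, which is from GENCODE, whose start differs from that of RefSeq. Of the 14 type 17 genes, 11 had a promoter in the table and 5 of those held the motif (Il17a, Il17f, Ccr6, Il23r and Ccl20), against 4607 of 32851 promoters of this length (14%). A match in letters is not evidence that a factor binds there.

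Genes of γδ T cells, another source of IL-17 in the gut, were measured beside the type 17 list. The list summed to 105.1 to 284.9 CPM in ileum and 17.53 to 28.36 CPM in mLN. Of 7 tested members 5 were higher and 2 lower (Trdc and Trdv2-2) in ileum, with a median log2 fold change of 4.00. Among those that rose was the γ chain variable gene Trgv2 (4.88 ± 0.35). The γ chain constant genes were higher in ileum, with Tcrg-C1 at 36.3 to 174 CPM in ileum and 0.907 to 8.2 CPM in mLN. Trdc, the constant gene of the δ chain, which defines the lineage, was lower in ileum, at 5.73, 3.1 and 2.47 CPM in TNFdARE ileum and 6.78, 6.47 and 7.39 CPM in WT ileum, against 8.26 and 10.2 CPM in TNFdARE mLN and 9.63, 11.3 and 11.3 CPM in WT mLN (-0.96 ± 0.20, edgeR adjusted p = 0.0014). So Tcrg-C1 stood apart upwards and Trdc downwards, with no overlap between the sites for either.

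Type 1 and cytotoxic genes also rose, with 17 of 20 tested members higher and 2 lower in ileum and a median log2 fold change of 3.00. Tbx21, which encodes T-bet, stood at 30.4 to 72.2 CPM in ileum and 6.1 to 11.4 CPM in mLN (2.57 ± 0.21, edgeR adjusted p = 8.8e-07), and Il12rb2, the inducible chain of the IL-12 receptor, at 26.7 to 60.2 CPM in ileum and 0.577 to 1.28 CPM in mLN (5.36 ± 0.21). These are a receptor and a factor that sustain each other in Th1 cells. The granzyme genes Gzma and Gzmb moved furthest, and Gzma stood at 69.3 to 177 CPM in ileum and 0.521 to 1.97 CPM in mLN (7.09 ± 0.39). Gzmb (chr14:56258838-56262260, minus strand) stood at 345, 380 and 223 CPM in TNFdARE ileum and 467, 492 and 339 CPM in WT ileum, against 4.61 and 7.82 CPM in TNFdARE mLN and 0.474, 0.371 and 1.26 CPM in WT mLN (7.45 ± 0.28, edgeR adjusted p = 2e-09). Prf1, whose product perforin carries granzymes into target cells, went the other way, with 16.2 to 29.4 CPM in ileum and 40.8 to 57.1 CPM in mLN (-1.05 ± 0.11, edgeR adjusted p = 7.8e-06), as did Crtam (-0.90 ± 0.23). Gzmc did not pass (1.10 ± 0.46, edgeR adjusted p = 0.056), though it did without the TNFdARE mLN library of B (0.027). The genes of CD8 and NK cells summed to 20.04 to 38.45 CPM in ileum and 22.11 to 28.74 CPM in mLN. Of 5 tested members 3 were higher and 1 lower in ileum, with a median of 2.48. Cd8b1 was lower (-1.71 ± 0.16). The NK receptor genes Klrb1c (2.91 ± 0.31), Klre1 (4.85 ± 1.20) and Klrc2 (2.48 ± 0.97) were higher, though Klrc2 lost its call with single libraries left out.

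Of the type 2 and tissue repair genes, 7 of 8 tested were higher in ileum, with a median log2 fold change of 2.61. The epithelial growth factor amphiregulin, encoded by Areg (chr5:91139599-91148432, plus strand), stood at 608, 591 and 598 CPM in TNFdARE ileum and 180, 138 and 110 CPM in WT ileum. In mLN it stood at 0.713 and 0.569 CPM in TNFdARE and 0.711, 0.165 and 0 CPM in WT. The ileum genotypes did not overlap, the mLN genotypes did, and the sites differed by 9.39 ± 0.32 on the log2 scale (edgeR adjusted p = 1e-09). Gata3, the factor of Th2 cells, rose by 1.03 ± 0.14, and Il4 stood at 2.47 to 14 CPM in ileum and 0.454 to 2.61 CPM in mLN (2.66 ± 0.40). Il5 stayed under 1 CPM in all 11 libraries and did not pass (2.33 ± 1.04, edgeR adjusted p = 0.071), though it did without the WT mLN library of C (0.019).

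Follicular helper genes rose less, with 9 of 11 tested members higher and a median of 1.19. In WT alone 11 of 11 were higher, and in TNFdARE alone 6 were higher and 1 lower. Icos, a costimulatory receptor, had the smallest adjusted p of the named genes on this list (3.16 ± 0.11, edgeR adjusted p = 1.4e-09), at 1209 to 1895 CPM in ileum and 122 to 256 CPM in mLN. Il21, whose product helps B cells, stood at 123, 126 and 91.7 CPM in TNFdARE ileum and 179, 196 and 187 CPM in WT ileum, against 26.9 and 40.5 CPM in TNFdARE mLN and 15, 11.6 and 13 CPM in WT mLN. It was thus lower in TNFdARE than in WT in ileum and higher in mLN. Bcl6, the factor of these cells, rose by 1.92 ± 0.17, and Cxcr5, the receptor that leads to B cell follicles, rose by 1.20 ± 0.18, with 1 TNFdARE mLN library at 88.8 CPM inside the ileum range of 72.6 to 130 CPM.

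Among all effector cytokines and ligands, 16 of 19 tested genes were higher and 3 lower in ileum, with a median of 2.28. Tnf, whose transcript the TNFdARE allele alters (chr17:35199381-35202007, minus strand), stood at 97.1, 80.7 and 87.4 CPM in TNFdARE ileum and 98, 83.5 and 66.7 CPM in WT ileum, against 55.2 and 52.4 CPM in TNFdARE mLN and 31.6, 26.3 and 16.6 CPM in WT mLN. The sites did not overlap (1.23 ± 0.15, edgeR adjusted p = 2.6e-05), the ileum genotypes did, and the mLN genotypes did not. Within WT the difference was 1.74 (edgeR adjusted p = 3e-05). Within TNFdARE it was 0.72 (edgeR adjusted p = 0.022), and it no longer passed without the TNFdARE ileum library of experiment A (0.058) or the TNFdARE mLN library of B (0.093) or C (0.11).

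Il10, which encodes an anti-inflammatory cytokine, stood at 53 to 88.5 CPM in ileum and 0.454 to 2.65 CPM in mLN (5.73 ± 0.26). Lif, a cytokine of the IL-6 family, rose by 4.60 ± 0.20, and Tnfsf11, which encodes RANKL, by 3.61 ± 0.17. Furin, the protease that activates TGF-β, rose by 4.24 ± 0.12 (edgeR adjusted p = 2.8e-10), with 864 to 1479 CPM in ileum and 54.4 to 61.3 CPM in mLN. The 3 genes that fell were the lymphotoxin genes Ltb (-1.24 ± 0.07) and Lta (-0.85 ± 0.12), whose products organise lymphoid tissue, and Osm (-1.52 ± 0.15), which encodes oncostatin M. Csf2, which encodes GM-CSF, stood at 1.01 to 3.47 CPM in ileum and at 0 to 0.316 CPM in mLN, where both TNFdARE libraries had no count.

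Of 30 cytokine receptor genes tested, 18 were higher and 6 lower in ileum, with a median of 0.63. Those that rose furthest were Il12rb2 (5.36), Il1r2 (4.81), which encodes the decoy receptor of IL-1, Il23r (4.69) and Il1r1 (4.68). Il1r2 stood at 385, 367 and 428 CPM in TNFdARE ileum and 75.1, 57 and 92 CPM in WT ileum, against 18.7 and 26.1 CPM in TNFdARE mLN and 1.7, 1.44 and 1.81 CPM in WT mLN. Its 4 groups were all separate, TNFdARE above WT at either site. Ifngr1, the ligand-binding chain of the IFN-γ receptor, rose by 3.03 ± 0.11. Il6ra, which binds IL-6, fell by 1.63 ± 0.09 and Il17ra, which binds IL-17, fell by 0.82 ± 0.07, while Il2rg (-0.02 ± 0.06) and Il7r (-0.02 ± 0.15) did not pass.

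The genes of the TNF and NF-κB response rose with 19 of 21 tested members, 1 lower and a median of 1.62. Tnfaip3, which encodes the NF-κB inhibitor A20, stood at 8979, 7141 and 8627 CPM in TNFdARE ileum and 7954, 6645 and 6810 CPM in WT ileum, against 143 and 158 CPM in TNFdARE mLN and 138, 112 and 115 CPM in WT mLN. The values within a site were close and the sites far apart (5.83 ± 0.11, edgeR adjusted p = 2.1e-11). Nfkbiz, which encodes IκBζ, rose by 3.89 ± 0.20, the costimulatory receptor gene Tnfrsf4 by 3.40 ± 0.09, and Tnfrsf1b, which encodes TNF receptor 2, by 2.81 ± 0.10. Tnfrsf1a, which encodes TNF receptor 1, was the member that fell (-0.30 ± 0.08, edgeR adjusted p = 0.0049), and Bcl3 did not pass (-0.03 ± 0.08).

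**Figure D2:**
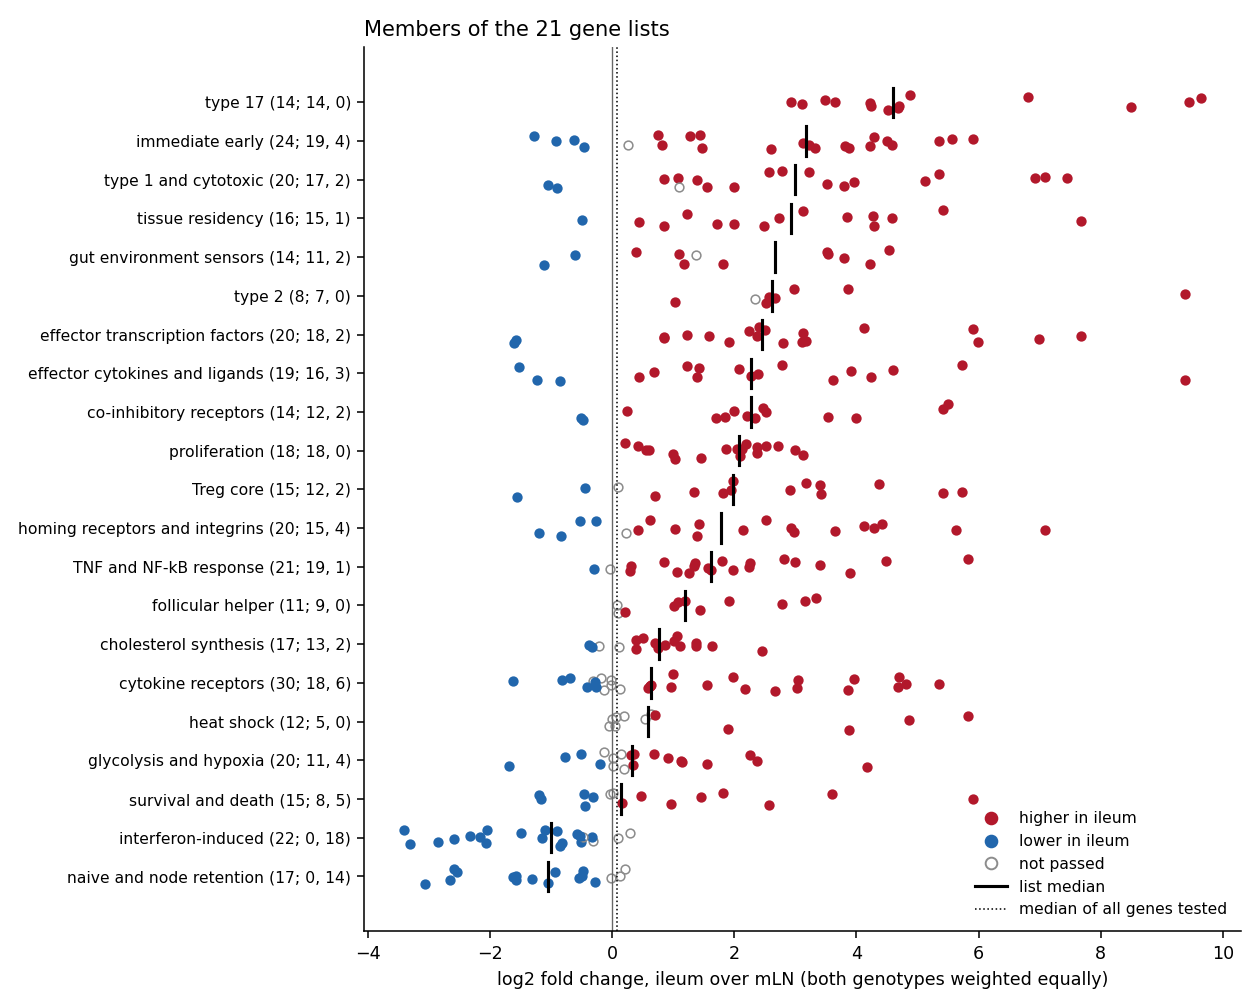
Fitted log2 fold change, ileum over mLN, (horizontal axis) of the tested Tconv genes of 21 lists; points are genes (6 tested genes at 0 in an mLN group, Ahrr, Atf3, Ccl3, Csf2, Cyp1b1 and Itga1, are not drawn), bars the list medians, the dotted line the median of all genes, and labels give the numbers tested, higher and lower. The type 17 list lies furthest to the right with a median of 4.60, and the naive list (-1.06) and the interferon list (-1.01) lie below 0.

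The genes of naive and node-dwelling T cells fell: 14 of 17 tested were lower in ileum and none higher, with a median of -1.06. Dapl1, a gene of unprimed T cells, stood at 6.1, 9.6 and 9.75 CPM in TNFdARE ileum and 15.8, 27.1 and 20.2 CPM in WT ileum, against 125 and 94.7 CPM in TNFdARE mLN and 111, 116 and 112 CPM in WT mLN. It was lowest in TNFdARE ileum, and the mLN genotypes overlapped. It fell by 3.06 ± 0.15, Igfbp4 by 2.54 ± 0.15, and the transcription factor genes Lef1 by 1.57 ± 0.07 and Tcf7 by 0.54 ± 0.05. Not all entry and exit receptors fell. Ccr7 stood at 681 to 991 CPM in TNFdARE ileum and 1288 to 1527 CPM in WT ileum, against 948 and 1005 CPM in TNFdARE mLN and 973 to 1078 CPM in WT mLN. Over both genotypes it did not pass (0.12 ± 0.09, edgeR adjusted p = 0.26), except without the TNFdARE ileum library of B (0.03), and in WT alone it was called higher in ileum (0.45). Klf2, which controls these receptors, did not pass either (0.21 ± 0.14), and S1pr1, the exit receptor, fell by 0.29 ± 0.09.

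Residency genes rose with 15 of 16 tested members, 1 lower and a median of 2.92. Bhlhe40, a transcription factor gene needed by cytokine-producing T cells, stood at 3860, 3867 and 3969 CPM in TNFdARE ileum and 2046, 1967 and 1582 CPM in WT ileum, against 28.6 and 30.5 CPM in TNFdARE mLN and 5.76, 4.17 and 7.59 CPM in WT mLN. All 4 groups were separate, and it had the smallest adjusted p of the named genes on this list (7.68 ± 0.17, edgeR adjusted p = 3.2e-11). Cd69, which keeps T cells in tissue by opposing S1PR1, stood at 915 to 1248 CPM in ileum and 247 to 322 CPM in mLN (1.99 ± 0.10), and the regulator of G protein signalling Rgs1 at 1334 to 3905 CPM in ileum and 22 to 104 CPM in mLN (5.42 ± 0.27). Itgae, which encodes the CD103 integrin chain that holds cells to epithelium, rose by 2.49 ± 0.21, with the WT ileum (46.3 to 74 CPM) meeting the TNFdARE mLN (32.7 and 48.1 CPM). Qpct fell (-0.50 ± 0.17, edgeR adjusted p = 0.022), and did not pass without the mLN library of experiment C of TNFdARE (0.1) or WT (0.052).

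Of 20 homing receptor and integrin genes tested, 15 were higher and 4 lower, with a median of 1.78. Ccr9, the receptor of the small intestinal chemokine CCL25, stood at 136 to 340 CPM in ileum and 10.2 to 29.5 CPM in mLN (3.65 ± 0.24, edgeR adjusted p = 1.4e-07). The receptors of inflammatory chemokines rose further, Ccr1 by 7.09 ± 0.36, Cxcr6 by 4.29 ± 0.23 and Ccr2 by 4.12 ± 0.20. Ccr1 stood at 135, 234 and 268 CPM in TNFdARE ileum and 32.2, 38.9 and 32.6 CPM in WT ileum, against 3.86 and 1.9 CPM in TNFdARE mLN and 0, 0 and 0.37 CPM in WT mLN. The chains of the gut integrin α4β7 moved apart, Itga4 rising by 0.42 ± 0.14 and Itgb7 falling by 0.54 ± 0.08. The call of Itga4 (edgeR adjusted p = 0.025) was lost with each of 5 libraries left out in turn (up to 0.14).

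Effector transcription factor genes rose with 18 of 20 tested members and fell with 2, with a median of 2.45 and the same counts in either genotype. Nfil3 stood at 231 to 386 CPM in ileum and 2.43 to 7.11 CPM in mLN (6.00 ± 0.12, edgeR adjusted p = 2.3e-11). Zeb2, a factor of terminal effector cells, rose by 6.98 ± 0.33, the AP-1 gene Fosl2 by 5.92 ± 0.25, Prdm1, which encodes Blimp-1, by 3.12 ± 0.19 and Irf4 by 2.80 ± 0.12. Id3, which holds T cells in a less differentiated state, fell by 1.57 ± 0.17, and Zbtb7b, which encodes the CD4 lineage factor ThPOK, fell by 1.61 ± 0.14.

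Co-inhibitory receptor genes rose with 12 of 14 tested members and fell with 2 (Btla and Vsir), with a median of 2.27. Btla did not pass without the TNFdARE mLN library of C (edgeR adjusted p = 0.053). Ctla4 stood at 2222, 2501 and 2898 CPM in TNFdARE ileum and 1372, 1454 and 1624 CPM in WT ileum, against 54.2 and 89.9 CPM in TNFdARE mLN and 28, 22.1 and 35.6 CPM in WT mLN (5.42 ± 0.19, edgeR adjusted p = 1e-09). Havcr2, which encodes TIM-3, rose by 5.51 ± 0.31, Tigit by 3.99 ± 0.22 and Pdcd1, which encodes PD-1, by 1.99 ± 0.19. Havcr2 stood at 69.3 to 117 CPM in TNFdARE ileum and 8.42 to 12.5 CPM in WT ileum, so that the ileum genotypes did not overlap.

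The genes of the Treg core were measured because the Tconv sort excluded cells by their Foxp3 reporter. Of 15 tested, 12 were higher in ileal Tconv and 2 lower (Ikzf4 and Gpr83), and the list summed to 2240 to 4677 CPM in ileum and 258.2 to 603 CPM in mLN, much of it Ctla4 and Tnfrsf4, which activated Tconv also express. Foxp3 (chrX:7573644-7595245, plus strand) stood at 194, 122 and 114 CPM in TNFdARE ileum and 18.1, 12.7 and 16.5 CPM in WT ileum, against 21.1 and 35.2 CPM in TNFdARE mLN and 6.95, 6.06 and 6.3 CPM in WT mLN. TNFdARE stood above WT at either site, and TNFdARE mLN above WT ileum, so the sites overlapped (1.82 ± 0.18, edgeR adjusted p = 4e-06). Treg of the same sites held 988 to 1623 CPM in ileum and 932 to 1116 CPM in mLN. The part of Foxp3-expressing cells in the site difference of Tconv was not tested.

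Immediate early genes, which respond within minutes to stimulation, rose with 19 of 24 tested members and fell with 4, with a median of 3.17. Their sum was 14980 to 19640 CPM in ileum and 2629 to 5811 CPM in mLN, and in mLN it followed the experiment: 5811 CPM in WT and no TNFdARE library in A, 4656 CPM (TNFdARE) and 3608 CPM (WT) in B, and 2629 and 2825 CPM in C. Fos stood at 1457, 985 and 856 CPM in TNFdARE ileum and 1448, 1516 and 2016 CPM in WT ileum, against 285 and 12.7 CPM in TNFdARE mLN (B and C) and 403, 69 and 11.7 CPM in WT mLN (A, B and C). The mLN libraries of C were lowest, and the sites still did not overlap (3.12 ± 0.86, edgeR adjusted p = 0.0076). Genes of this list with less spread in mLN included Klf6 (3.22 ± 0.09), Gadd45b (5.35 ± 0.24) and Nr4a3 (4.22 ± 0.18). With experiments B and C alone, 20 were higher and 4 lower. Egr2, Egr3, Dusp2 and Myc were the members that fell, and Dusp2 did not pass without the TNFdARE mLN library of B (edgeR adjusted p = 0.058). Without that library the median of the list was 3.93.

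Of 12 heat shock genes tested, 5 were higher in ileum (beside 34.3% of all genes tested) and none lower, with a median of 0.59. With experiments B and C alone 4 were higher and the median was 0.14, and voom called 3. Hspa1a stood at 577, 447 and 17.3 CPM in TNFdARE ileum and 936, 275 and 117 CPM in WT ileum, against 17.6 and 0.0474 CPM in TNFdARE mLN and 30.7, 26.6 and 3.11 CPM in WT mLN. The libraries of experiment C were lowest in each group, and the sites overlapped (4.87 ± 1.09, edgeR adjusted p = 0.0023).

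Genes induced by interferon stood lower in ileum, with 18 of 22 tested members lower, none higher and a median of -1.01. In WT alone 20 were lower (median -1.45), and in TNFdARE alone 10 were lower and 1 higher (median -0.57). The difference between the genotypes passed for 2 of the 22 genes, among them Ifi27l2a, as given below. For the other 20 it did not pass, Ifit1, Ifit3 and Usp18 included. The list summed to 882.6 to 1191 CPM in the ileum libraries of both genotypes, to 1264 and 1438 CPM in TNFdARE mLN and to 3788, 3464 and 2469 CPM in WT mLN. Ifit1, which binds viral RNA, stood at 21.4, 12.3 and 10.8 CPM in TNFdARE ileum and 37, 31.8 and 15.7 CPM in WT ileum, against 43.3 and 58.1 CPM in TNFdARE mLN and 362, 341 and 189 CPM in WT mLN. WT mLN stood alone, and the other 3 groups were within a narrower range (-2.58 ± 0.25, edgeR adjusted p = 3.7e-06; -1.77 in TNFdARE and -3.40 in WT). Ifit3 stood at 2.07 to 3.42 CPM in TNFdARE ileum and 3.39 to 15.4 CPM in WT ileum, against 8.13 and 12.7 CPM in TNFdARE mLN and 70.5 to 190 CPM in WT mLN. Usp18, which dampens interferon signalling, fell by 3.40 ± 0.17 (edgeR adjusted p = 1e-08), with -3.33 in TNFdARE and -3.48 in WT. Isg15, a ubiquitin-like protein gene, was the member called higher in TNFdARE (0.98), and over both genotypes it did not pass (0.29 ± 0.15, edgeR adjusted p = 0.11). It passed with the experiment as a block (0.24, edgeR adjusted p = 0.049) and without the WT mLN library of A (0.019).

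The promoters of Ifit1 and Ifit3 are shown because both genes are classical targets of type I interferon, which acts through a known element. The stretches are again the 250 bases before the start (RefSeq, GRCm38.p6), with capitals marking the core of the interferon-stimulated response element (GAAA, any pair of bases, then GAAA), or its reverse complement, searched on both strands.
Ifit1 (chr19:34640639-34640888, plus strand): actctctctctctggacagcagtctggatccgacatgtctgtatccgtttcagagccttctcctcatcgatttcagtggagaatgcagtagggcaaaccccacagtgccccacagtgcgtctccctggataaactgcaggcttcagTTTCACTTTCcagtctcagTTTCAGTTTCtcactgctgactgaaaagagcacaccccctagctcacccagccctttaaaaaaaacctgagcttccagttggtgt
Ifit3 (chr19:34583279-34583528, plus strand): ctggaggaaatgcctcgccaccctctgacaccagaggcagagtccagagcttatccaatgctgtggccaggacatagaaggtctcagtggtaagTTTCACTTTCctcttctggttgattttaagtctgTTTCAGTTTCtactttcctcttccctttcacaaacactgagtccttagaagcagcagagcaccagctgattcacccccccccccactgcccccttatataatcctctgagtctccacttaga
Each held 2 matches. Of the 22 genes, 15 had a promoter in the table and 7 of those held the motif (Ifit1, Ifit3, Isg15, Oas1a, Stat2, Rsad2 and Bst2), against 978 of 32851 promoters of this length (2.98%). Isg15 and Rsad2 held the motif and did not pass over both genotypes, while with the experiment as a block Isg15 was called higher (0.24, edgeR adjusted p = 0.049) and Rsad2 lower (-0.65, 0.024). With the block 20 of the 22 genes were lower and 1 higher. Oas1a (-0.58, edgeR adjusted p = 0.026) did not pass without the TNFdARE mLN library of C (0.24), nor with each of 3 other libraries left out in turn.

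Sensors of the gut environment rose with 11 of 14 tested members and fell with 2 (Rara and Rarg, the retinoic acid receptor genes), with a median of 2.67. That median was 1.74 without the TNFdARE ileum library of A, 1.8 without the WT ileum library of B, and 3.39 and 3.44 without the TNFdARE mLN library of B and C, where 13 or 18 members could be tested. Ahr, the receptor of dietary and microbial indoles, stood at 178 to 319 CPM in ileum and 5.57 to 33.8 CPM in mLN (4.22 ± 0.19, edgeR adjusted p = 6.1e-09). Its targets Tiparp (1.82 ± 0.12) and Ahrr rose too, with Ahrr at 3.54 to 14.4 CPM in ileum and without a count in 4 of the 5 mLN libraries. Abcb1a, which encodes a drug efflux pump, rose by 3.80 ± 0.19, Dhrs3, an enzyme of retinoid metabolism, by 3.52 ± 0.15, and the vitamin D receptor gene Vdr by 3.53 ± 0.28.

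Metabolic genes moved less. Of 20 glycolysis and hypoxia genes, 11 were higher and 4 lower with a median of 0.33. Hk2, the inducible hexokinase gene, stood at 15.8 to 35.1 CPM in ileum and 0.63 to 1.93 CPM in mLN (4.18 ± 0.37), Egln3 rose by 2.37 ± 0.15 and Pdk1, which diverts pyruvate from mitochondria, fell by 1.68 ± 0.08. Of 17 cholesterol synthesis genes, 13 were higher and 2 lower with a median of 0.76, led by Insig1 (2.45 ± 0.16). Of 15 survival and death genes, 8 were higher (beside 34.3% of all genes tested) and 5 lower (beside 26.7%). The median of this list was 0.15, against 0.08 over all genes. Pmaip1, which encodes the pro-apoptotic protein NOXA, rose by 5.90 ± 0.13, and Bcl2a1d, an anti-apoptotic gene with near-identical copies among which reads can be split, by 3.60 ± 0.14.

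Cell cycle genes were higher in ileum for 18 of 18 tested members, with a median of 2.07. Mki67, a gene of cycling cells, stood at 70.6, 60.7 and 99 CPM in TNFdARE ileum and 59.2, 59.7 and 75.5 CPM in WT ileum, against 7.17 and 22.3 CPM in TNFdARE mLN and 4.3, 2.31 and 9.45 CPM in WT mLN (2.99 ± 0.35, edgeR adjusted p = 1.6e-05). The mLN libraries of experiment C were the highest of their groups, and none reached the ileum range. In WT alone 18 were higher, and in TNFdARE alone, with its 2 mLN libraries, 9. In the test of the difference between the genotypes 0 of the 18 passed.

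Among genes outside the lists, the largest rises with no overlap and a mean log2 CPM of at least 3 included Ier5l (8.06), Cdkn1a (7.48), which encodes the cell cycle inhibitor p21, and Gem (6.90), a small GTPase gene. Cdkn1a stood at 166, 175 and 221 CPM in TNFdARE ileum and 95.8, 86.1 and 75.2 CPM in WT ileum, against 1.3 and 1.23 CPM in TNFdARE mLN and 0.434, 0.412 and 0.333 CPM in WT mLN. The largest falls under the same limits were smaller, while 13 genes over the whole table fell by at least 5 on the log2 scale. Under these limits Ifit1bl1, a relative of Ifit1, fell by 3.97, Slc16a5, a monocarboxylate transporter gene, by 3.40, B3galt4 by 3.07, Tspan9 by 3.06, Treml2 by 3.06, Lfng, which modifies Notch receptors, by 2.74, and Vipr1, the receptor of vasoactive intestinal peptide, by 2.61. Vipr1 stood at 17, 15.3 and 18 CPM in TNFdARE ileum and 37.7, 45.5 and 52 CPM in WT ileum, against 172 and 125 CPM in TNFdARE mLN and 188, 198 and 182 CPM in WT mLN. B3galt4 was the most even of these, at 3.85 to 5.71 CPM in ileum and 38.6 to 43.1 CPM in mLN.

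**Figure D3:**
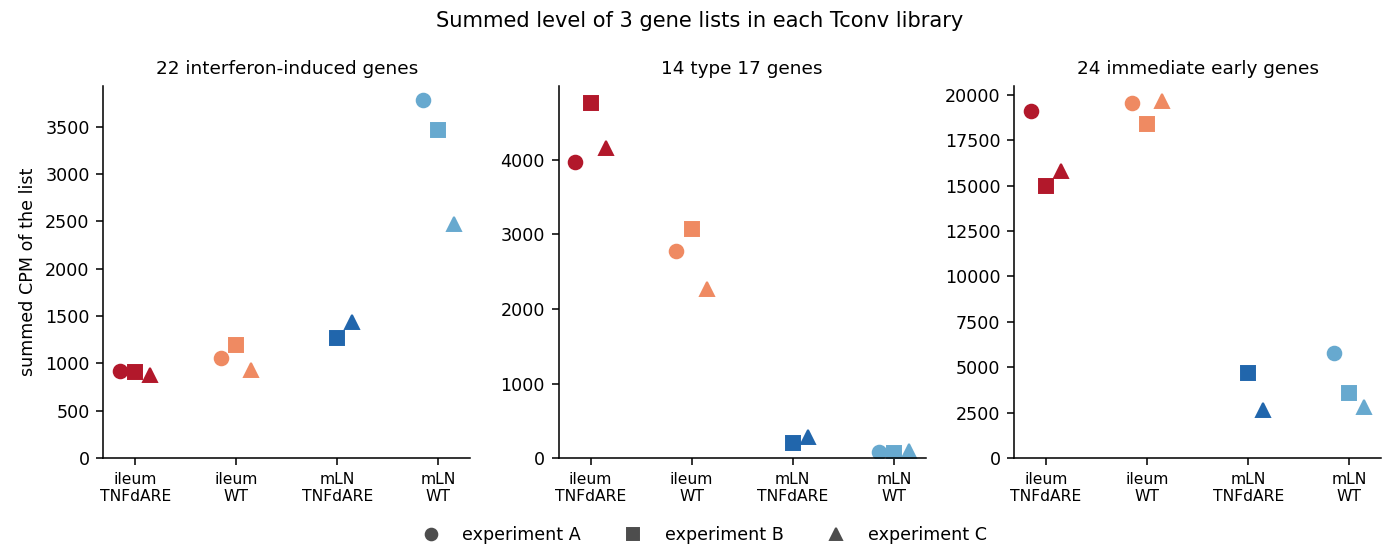
Summed CPM of the interferon-induced, type 17 and immediate early genes in each Tconv library of ileum and mLN, by genotype, with symbols for the experiments. The interferon-induced sum is 3788, 3464 and 2469 CPM in WT mLN and at most 1438 CPM in the other libraries.

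Whether the site difference itself differed between genotypes was tested as TNFdARE ileum minus mLN against WT ileum minus mLN. Of 15868 genes, 99 passed (0.624%), 26 with a more positive difference in TNFdARE (0.164%) and 73 with a more negative one (0.46%), and 1565 had an unadjusted p below 0.05. With the experiment as a block, 182 genes passed, 95 of them among the 99. The count was 8 without the TNFdARE mLN library of experiment C, 13 without the WT mLN library of A, 33 without that of B, 59 and 64 without the WT ileum library of C and A, and 63 without the TNFdARE ileum library of B. The 3 cytokines did not pass, with Il17a at -2.67 ± 0.70 (edgeR adjusted p = 0.13), Il22 at -1.62 ± 0.85 (0.6) and Ifng at -0.44 ± 0.52 (0.9). With the block, Il17a (-2.49, adjusted p = 0.047) and Tnf (-1.16, 0.027) passed, while without it Tnf stood at -1.02 ± 0.29 (0.19).

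Of the genes named for a more positive difference in TNFdARE, Penk, Tnfrsf9, Tent5a and Ly6a stood higher in every TNFdARE ileum library than in any WT ileum library. Penk, the precursor gene of enkephalins, stood at 411, 495 and 536 CPM in TNFdARE ileum and 59.3, 47.3 and 45.2 CPM in WT ileum, against 15.1 and 15.4 CPM in TNFdARE mLN and 8.45, 4.41 and 8.22 CPM in WT mLN. Its site difference was 4.98 in TNFdARE and 2.84 in WT, a difference of 2.14 ± 0.30 (edgeR adjusted p = 0.011). Tnfrsf9, which encodes the costimulatory receptor 4-1BB, stood at 378, 232 and 265 CPM in TNFdARE ileum and 85.3, 69.8 and 77.8 CPM in WT ileum, while both mLN groups lay between 54.4 and 62.8 CPM (1.88 ± 0.24, edgeR adjusted p = 0.0082). Tent5a, a poly(A) polymerase gene, stood at 90.9 to 128 CPM in TNFdARE ileum and 34 to 46.4 CPM in WT ileum, against 29.6 and 30.4 CPM in TNFdARE mLN and 49 to 56.9 CPM in WT mLN. Its site difference had opposite signs, 1.86 in TNFdARE and -0.41 in WT (2.27 ± 0.21, edgeR adjusted p = 0.0031).

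Cd86, a costimulatory ligand gene (2.52 ± 0.47, edgeR adjusted p = 0.033), Ly6a, which encodes Sca-1 (1.96 ± 0.37, 0.036), and Gbp6, a guanylate-binding protein gene (1.89 ± 0.32, 0.022), also had opposite signs in the genotypes. Ly6a stood at 193, 359 and 425 CPM in TNFdARE ileum and 103, 163 and 129 CPM in WT ileum, against 219 and 290 CPM in TNFdARE mLN and 403, 411 and 386 CPM in WT mLN. Ifi27l2a of the interferon-induced list (0.91 ± 0.17, edgeR adjusted p = 0.032) differed in the same direction.

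Of the genes named for a more negative difference in TNFdARE, chosen among those with a mean log2 CPM of at least 3, Gzmb had the largest (-3.55 ± 0.51, edgeR adjusted p = 0.013): its site difference was 5.68 in TNFdARE and 9.23 in WT. Its ileum levels in TNFdARE overlapped the lower end of those in WT, and its mLN levels in TNFdARE stood above those in WT. Il21 was lower in ileum and higher in mLN in TNFdARE (-2.08 ± 0.24, edgeR adjusted p = 0.0053), and 3 more follicular helper genes passed in the same direction, Izumo1r (-1.21), Slamf6 (-0.89) and Tox2 (-1.94). Sostdc1, which encodes a secreted antagonist of BMP and Wnt signals, stood at 14.8 to 22 CPM in TNFdARE ileum and 41.6 to 71.1 CPM in WT ileum, against 3.52 and 10.8 CPM in TNFdARE mLN and 1.16 to 3.3 CPM in WT mLN (-3.28 ± 0.59, edgeR adjusted p = 0.031). Myo6, a myosin gene (-2.45 ± 0.30, edgeR adjusted p = 0.0082), and Gpr83, a receptor gene used as a marker of Treg (-2.15 ± 0.23, 0.0038), were lower in TNFdARE ileum and higher in TNFdARE mLN than in WT at the same site. Fgl2, a fibrinogen-like gene, was higher in TNFdARE at both sites and its difference was smaller by 2.08 ± 0.40 (0.038). The naive genes Actn1, Igfbp4, Lef1 and Tcf7 also fell further in TNFdARE (between -0.73 and -1.88). Of the 12 genes named by size here, Tent5a, Myo6, Gpr83 and Il21 kept their call with any of the 11 libraries left out, and Cd86, Penk, Ly6a, Gbp6, Tnfrsf9, Gzmb, Sostdc1 and Fgl2 lost it with at least 1.

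**Figure D4:**
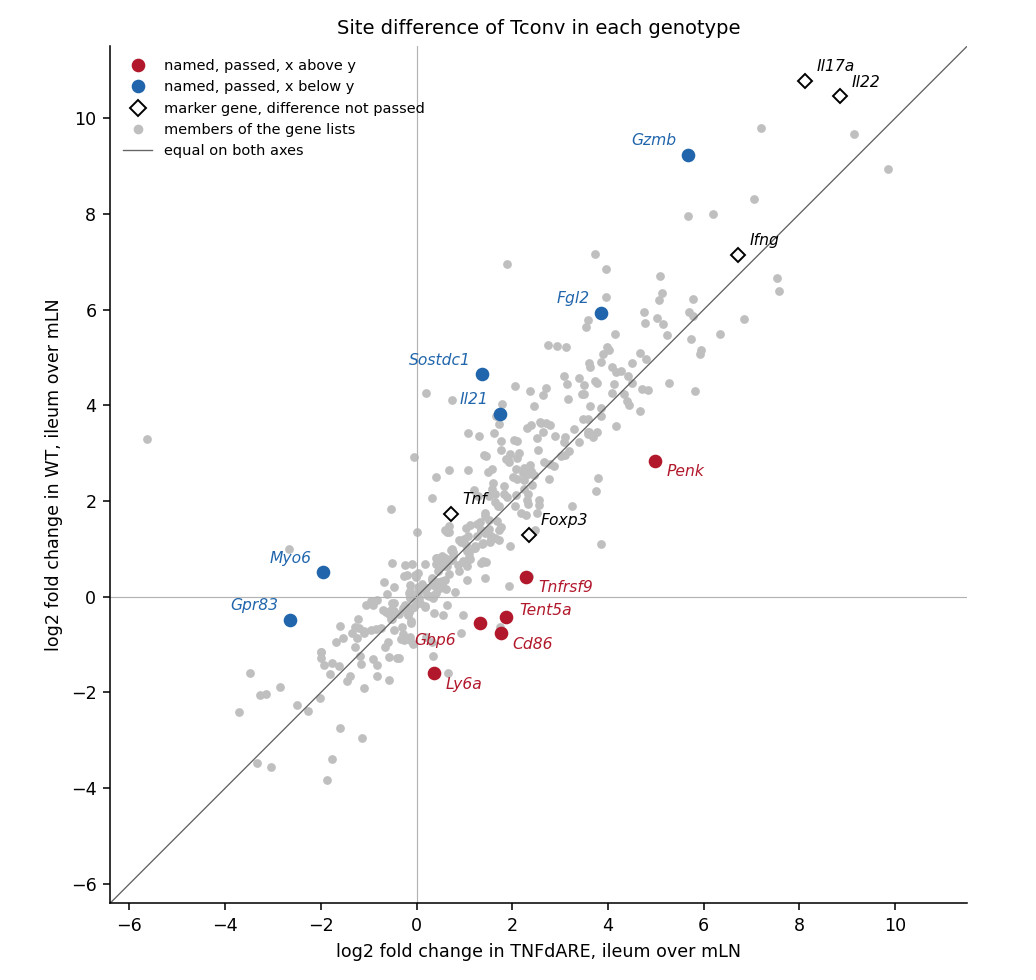
Fitted log2 fold change, ileum over mLN, in TNFdARE Tconv (horizontal axis) and WT Tconv (vertical axis) for list members (grey) and the named genes whose difference passed (colours); diamonds are marker genes that did not pass, and the line is equality. Penk lies below it (4.98 in TNFdARE, 2.84 in WT) and Gzmb above it (5.68 in TNFdARE, 9.23 in WT).

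The site difference of Tconv was then tested against that of Treg from the same sites, over both genotypes. No library is shared between these differences. Of 17613 genes, 1101 passed (6.25%), 853 with a more positive difference in Tconv (4.84%) and 248 with a more negative one (1.41%). DESeq2 called 1137 more positive and 681 more negative (62.5% positive, against 77.5%). Fewer genes passed with a covariate for the running number of a library in the column names, as given in the last section. The count was 714 without the Tconv TNFdARE mLN library of experiment B and 1904 without the Treg WT ileum library of B. Treg themselves differed between the sites in 7490 genes (42.5%).

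Of the 3 cytokines, Ifng passed here (3.91 ± 0.63, edgeR adjusted p = 0.00054). In Treg it stood at 13, 4.17 and 5.09 CPM in TNFdARE ileum and 11.1, 14.9 and 3.16 CPM in WT ileum, against 1.58 and 0.71 CPM in TNFdARE mLN and 1.36, 0.49 and 1.12 CPM in WT mLN. The Treg ileum values thus lay far under those of Tconv, and the Treg mLN values beside them. Il17a rose in Treg by 6.75, with 14.8 to 25.2 CPM in ileum and 0 to 1.23 CPM in mLN, and its difference between the cell types was not called (2.69 ± 1.54, edgeR adjusted p = 0.41). It had the opposite sign without the Treg TNFdARE mLN library of experiment B (-0.715), in which 1.23 CPM of Il17a were found, and so did Il22 (0.46 ± 2.03 with all libraries, -1.06 without that one). Of the type 17 list, 11 of 14 genes passed with a more positive difference in Tconv, the others being Il17a, Il17f and Il22, of which Il17f passed with the experiment as a block (3.39, edgeR adjusted p = 0.04). Ccr6 differed by 2.87.

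Ccl20 had 5.23 ± 0.41 more on the log2 scale in the Tconv site difference (edgeR adjusted p = 2.2e-07), since in Treg it stood at 14.3 to 43 CPM in ileum and 5.84 to 21 CPM in mLN. Rgs1 (3.98 ± 0.31, edgeR adjusted p = 2.1e-07) was similarly high in Treg of either site, at 1388 to 2046 CPM in ileum and 470 to 924 CPM in mLN. Socs2, a feedback inhibitor of cytokine signalling, went in opposite directions: in Tconv it stood at 17.9 to 33.5 CPM in ileum and 0.701 to 6.3 CPM in mLN, and in Treg at 69.1 to 111 CPM in ileum and 99.1 to 160 CPM in mLN (3.95 ± 0.23, edgeR adjusted p = 8.6e-09). Tnf did so too, with a Treg site difference of -0.90 ± 0.18 and a difference between cell types of 2.11 ± 0.27 (edgeR adjusted p = 3.8e-05). The RNA-binding protein gene Rbm24 (6.18 ± 0.61, edgeR adjusted p = 3.1e-06) stood at 43.7 to 177 CPM in Tconv of ileum and 0 to 1.76 CPM in Tconv of mLN, and Sdc4, which encodes syndecan 4, at 21.6 to 178 CPM in Tconv of ileum and 0.124 to 5.49 CPM in Tconv of mLN (4.88 ± 0.35). In Treg, Rbm24 stood at 10.7 to 24.4 CPM in ileum and 0.828 to 29.6 CPM in mLN, and Sdc4 at 68.8 to 204 CPM in ileum and 40.6 to 161 CPM in mLN.

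Fewer genes had a more negative site difference in Tconv than in Treg. Epas1, which encodes the hypoxia-inducible factor HIF-2α, stood at 12.9 to 47.9 CPM in Tconv of ileum and 6.08 to 7.51 CPM in Tconv of mLN, and in Treg at 32.1 to 92.5 CPM in ileum and 0.146 to 1.78 CPM in mLN (-4.32 ± 0.42, edgeR adjusted p = 2.5e-06). The difference came from both sites, since Epas1 was lower in Treg than in Tconv of the node and higher in most Treg libraries of the ileum. Tent5a rose by 4.05 in Treg (-3.34 ± 0.19, edgeR adjusted p = 5.2e-09), with 292 to 522 CPM in Treg of ileum and 24.9 to 34.4 CPM in Treg of mLN. Sgk1, a kinase gene induced by serum and glucocorticoids, stood at 96.9 to 193 CPM in Tconv of ileum and 167 to 217 CPM in Tconv of mLN, and in Treg at 165 to 241 CPM in ileum and 25.8 to 59.8 CPM in mLN (-2.86 ± 0.24, edgeR adjusted p = 4.6e-07). Cyp2s1, a cytochrome P450 gene induced through AHR, differed by -2.19 ± 0.29 and Acvrl1, which encodes the receptor ALK1, by -2.76 ± 0.64 (edgeR adjusted p = 0.012). Gsn (-2.94 ± 0.85, edgeR adjusted p = 0.047), a gelsolin gene that fibroblasts express strongly, varied among the Treg ileum libraries from 36 to 765 CPM. Stromal Dcn varied with it, at 687.4, 95.69 and 6.373 CPM in Treg of TNFdARE ileum and 51.68, 247.7 and 11.94 CPM in Treg of WT ileum, where Gsn stood at 765, 156 and 52.1 CPM in TNFdARE and at 118, 444 and 36 CPM in WT. The part of stromal RNA in this difference was not tested.

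**Figure D5:**
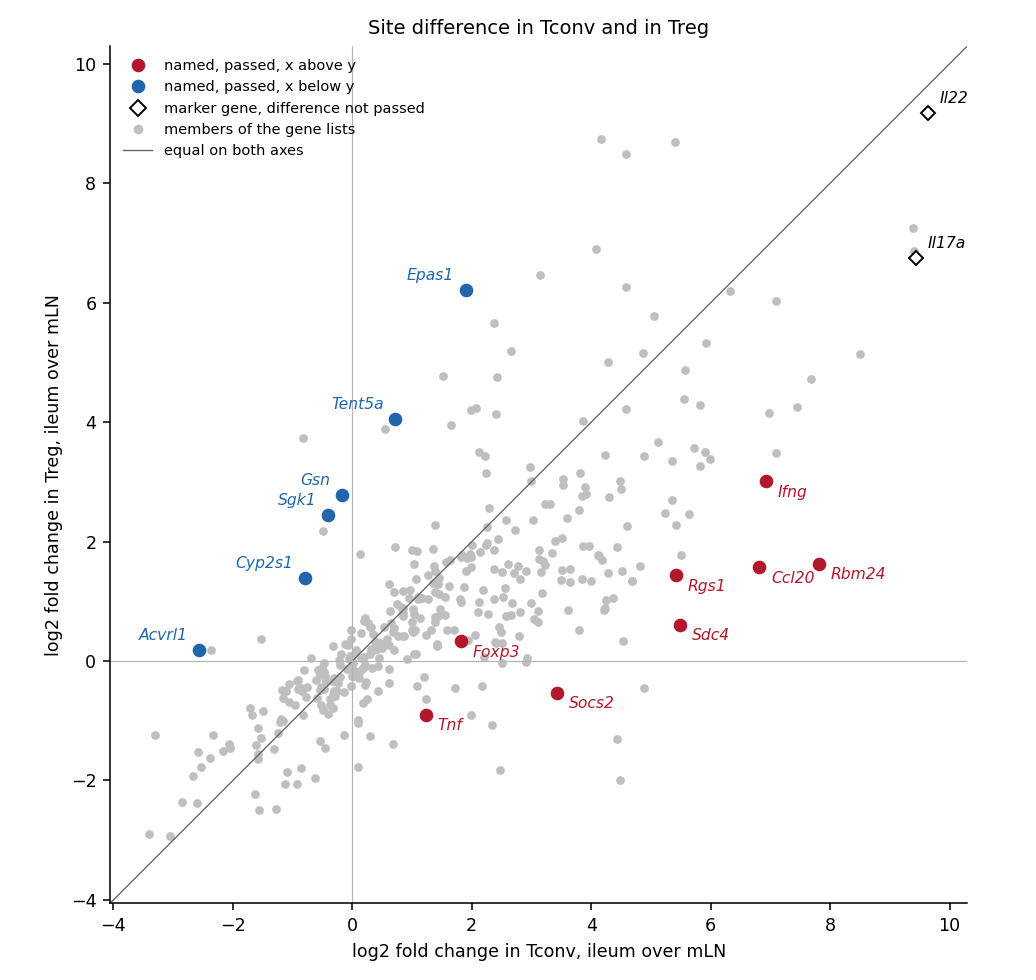
Fitted log2 fold change, ileum over mLN, in Tconv (horizontal axis) and Treg (vertical axis) for list members (grey) and the named genes whose difference passed (colours); diamonds are marker genes that did not pass, and the line is equality. Socs2 lies below the line (3.42 in Tconv, -0.53 in Treg) and Tent5a above it (4.05 in Treg).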

How the data were processed

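Bulk RNA of sorted Tconv was profiled. Per the labels' protocol, total RNA (RNeasy Micro kit) was made into full-length cDNA with SMART-Seq v4 PLUS from 1 of 2 input amounts, not matched to libraries in the sources used here, so that an amount that followed the site could not be told apart from it. Tools listed in the submitters' processing notes are Bowtie2 2.3.3.1 and cutadapt 1.15, and the build is GRCm38. The counting program and its annotation are not given in the sources used here. The authors deposited raw counts of 46603 genes, unnormalised, and FPKM values of 18964 genes. No FPKM value was 0 and 97.2% of its genes repeat a value, so the deposited FPKM values served only as a check of direction. GENCODE M21 gave symbols to 46005 identifiers.

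Counts of the 11 Tconv libraries were fitted with 1 mean per group in edgeR 4.0.16 (R 4.3.3), with TMM scaling, the filterByExpr filter, the quasi-likelihood F test and Benjamini-Hochberg adjustment over all genes tested (threshold 0.05). The comparison with Treg used 22 libraries. The SE is the log2 fold change divided by the root of F. CPM values of single genes use TMM library sizes, and log2 CPM a prior count of 2. Summed CPM of lists use total counts alone, without TMM scaling. A count of 0 was bounded by 3 counts, which covers counting error only. P-values measure the spread between libraries, for which the labels name independent experiments but not animals. Every column of the tables belongs to a sample of the series.

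Genes named are the 3 markers with Tnf and Foxp3, up to 14 rising and 14 falling genes without overlap and with a mean log2 CPM of at least 3, up to 6 in each direction of the comparisons between genotypes and cell types, up to 5 of each list by adjusted p, and further members with their values; a few genes that enter the counts and medians of their lists are not reported here by name. The members, the 32 lists (471 genes, 1 not in the table) and the tests were chosen with earlier results of these data known, so their agreement with those results is no independent support. Letters of replicates mark shared experiments. Deviations from the group means correlated by -0.01 to 0.368 over 10 same-letter pairs (3 above 0.1) and by -0.24 to 0.151 over 20 other pairs (1 above 0.1). Because deviations within a group sum to 0, these pairs are not independent, and both ranges are partly tied to each other. Alternatives were another scaling, DESeq2 1.42.0, voom with quality weights (limma 3.58.1), no filter, a fold threshold, the experiment as a block, other sets of libraries and leaving out each library. The tests were first run on simulated counts.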

Additional observations from a re-analysis of the deposited data

Results flagged for a closer look

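The site difference differed between the genotypes, by a test of that difference, for 99 genes. Those named by size had a more positive difference in TNFdARE than in WT for Cd86 (2.52 on the log2 scale), Tent5a (2.27), Penk (2.14), Ly6a (1.96), Gbp6 (1.89) and Tnfrsf9 (1.88), and a more negative one for Gzmb (-3.55), Sostdc1 (-3.28), Myo6 (-2.45), Gpr83 (-2.15), Fgl2 (-2.08) and Il21 (-2.08). The site difference differed between Tconv and Treg, by the same kind of test, for 1101 genes. It was more positive in Tconv for Rbm24 (6.18), Ccl20 (5.23), Sdc4 (4.88), Rgs1 (3.98), Socs2 (3.95) and Ifng (3.91), and more negative for Epas1 (-4.32), Tent5a (-3.34), Gsn (-2.94), Sgk1 (-2.86), Acvrl1 (-2.76) and Cyp2s1 (-2.19). Groups held 2 or 3 libraries, so no test for outlying libraries was made.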

How the results depend on the processing

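Tests against a fold change of 2 (glmTreat) called 2868 genes over both genotypes, 1610 in TNFdARE and 2128 in WT, 0 between the genotypes (where 1565 genes had an unadjusted p below 0.05 and DESeq2 called 398) and 205 between the cell types. A fit of all 42 libraries called 5915, 2853, 3544 and, between the genotypes, 26 genes. Leaving out 1 library at a time gave 8341 to 9397 genes over both genotypes, 4361 to 6420 in TNFdARE, 6201 to 6957 in WT, 8 to 111 between the genotypes and 714 to 1904 between the cell types; where this leaves 1 TNFdARE mLN library, that library is assumed to vary like the other groups. Between the genotypes, DESeq2 called 398 genes, the fit without a filter beyond 1 count 688 and the replicate block 182 (55 more positive, 127 more negative). Between the cell types DESeq2 called 1818 genes and a fit with the sheet pass of the deposited table as covariate 762. This pass was a cut made here on the running number in the column names, which the labels do not name as a batch. Among the 22 libraries, its second part held only Treg libraries of ileum, so it partly followed the Treg site difference. The other scalings, voom, and the fits of WT alone, TNFdARE alone and experiments B and C kept the counts within 1.5 times of the values in the report, where they were run. The block ended the calls of Klrc2 (edgeR adjusted p = 0.057) and H2-Aa (0.058) over both genotypes, and gave those of Isg15 and Rsad2. It gave those of Il17a, Tnf, Il17f, Il1r1, Il1r2, Cxcr5, Dapl1, Isg15, Abcb1a and Klrb1c between the genotypes, of Il17f, Gata3, Il7r, Nr4a3 and Myc between the cell types, of Il5, Tcf7, Itga4, Dusp2, Isg15, Cd86 and Myo6 in WT alone and of Slamf6 and Itga4 in TNFdARE alone, where it ended that of Egr3. It changed no other call among the genes whose values the report gives. Of 159 genes named over both genotypes as markers, by size or by adjusted p, 4 lost their call with 1 library left out, among them Klrc2, H2-Aa and H2-Eb1. Further members given with their values are not in that count, and of these Itga4, Qpct, Btla, Dusp2 and Oas1a also lost their call. Hspa1b lost it with experiments B and C alone (0.062), and Hspa1a (0.088), Hspb1 (0.067), Reg3g (0.062) and Col1a2 (0.068) under voom. Between the genotypes voom ended the calls of Gzmb (0.081) and Fgl2 (0.22), while DESeq2 called Tnf (0.04). Gsn lost its call between cell types with the sheet pass as covariate (0.13) and without most single libraries. In that comparison Il17a (-0.715) and Il22 (-1.062) had the opposite sign without the Treg TNFdARE mLN library of experiment B, and neither passed with or without it; with each library left out in turn they ranged up to 3.181 and 1.679. The causes were not tested. Log2 FPKM (pseudocount 1) had the opposite sign for 57 of 9603 called genes. Levels under 0.111 to 0.165 CPM could not be told from 0.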
